A study of Homo sapiens with 47 samples.

Results

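*NKX1-2*, *FOXB1*, *GBX2*, *SP8* and *EVX1* encode transcription factors of the caudal epiblast, the tissue beside the primitive streak from which the trunk and tail are laid down. They were chosen by name, and these 5 of the 58051 genes listed were followed by Ensembl identifier in all 47 libraries. RNA came from WA09 (H9) cells, an established human embryonic stem cell (hESC) line, so all groups share a single genetic background. Undifferentiated hESCs were sampled at t0. Neuromesodermal progenitor (NMP)-like cells were sampled after 36 h in N2B27 medium without vitamin A that held CHIR-99021 (an agonist of WNT signaling), rhFGF2, AGN193109 (an inverse agonist of retinoic acid receptors) and Y-27632 (an inhibitor of ROCK kinase). Cultures labelled as pre-neural progenitor (PNP) and neural crest cells, kept in the same factors, were sampled at each passage from P1 to P10. Each group held 3 independent differentiations (1 to 3), except P9 with differentiations 1 and 2. At P5 and P8, an epithelial (EPI) and a mesenchymal (MES) fraction were also taken from each differentiation by selective detachment with TrypLE, which enriches for a cell type and does not purify it. The p-values below measure the spread between differentiations of 1 line.

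The caudal lateral epiblast is kept in an undifferentiated state by WNT and FGF signals and gives rise to spinal cord and paraxial mesoderm, and retinoic acid from the somites ends this state. *NKX1-2* encodes a homeodomain protein that marks the caudal lateral epiblast and the pre-neural tube in mouse and chick. *GBX2* encodes a homeodomain protein of the posterior neural plate that also sets the border between midbrain and hindbrain. *SP8* encodes a zinc finger factor of the SP family with roles in limb, tail and neural patterning downstream of WNT. *EVX1* encodes an even-skipped homeodomain protein of the posterior primitive streak and, later, of spinal interneurons, and *FOXB1* encodes a forkhead factor of the early neural plate and the caudal neural tube.

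The 100 bases just before the outermost start that GENCODE 29 gives each gene are shown because the genes share an inducing medium, so that their start regions can be compared. For *GBX2* the RefSeq start lies further out, at base 236168386, so the last bases of that stretch are inside the RefSeq transcript. The sequences are from the RefSeq promoter table of GRCh38.p14, read 5′ to 3′ on the strand of the gene, with each CG pair in capitals.
NKX1-2 (chr10:124450185-124450284, minus strand): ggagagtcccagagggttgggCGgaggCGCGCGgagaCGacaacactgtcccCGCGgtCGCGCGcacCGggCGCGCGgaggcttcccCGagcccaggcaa
GBX2 (chr2:236168370-236168469, minus strand): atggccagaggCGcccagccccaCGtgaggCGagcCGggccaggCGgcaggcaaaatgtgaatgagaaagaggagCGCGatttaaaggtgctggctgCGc
SP8 (chr7:20786887-20786986, minus strand): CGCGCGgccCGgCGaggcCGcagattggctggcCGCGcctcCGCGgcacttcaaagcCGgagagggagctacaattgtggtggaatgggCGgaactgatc
EVX1 (chr7:27242600-27242699, plus strand): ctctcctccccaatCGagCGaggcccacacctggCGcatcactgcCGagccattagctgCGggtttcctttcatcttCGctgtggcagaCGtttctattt
FOXB1 (chr15:60004122-60004221, plus strand): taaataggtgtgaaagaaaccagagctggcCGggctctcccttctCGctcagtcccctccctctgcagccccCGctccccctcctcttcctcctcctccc
The stretch before *NKX1-2* held 15 CG pairs, that before *SP8* 12, *GBX2* 8, *EVX1* 7 and *FOXB1* 3. In the whole 300-base windows, from 250 bases before the RefSeq start to 50 after it, the GC share was 76.3% for *NKX1-2*, 71.3% for *GBX2*, 61.7% for *SP8*, 57.0% for *EVX1* and 56.3% for *FOXB1*, against a median of 58.7% over 35116 windows. The letters CTTTGAT, a form of the site of TCF/LEF factors, were searched on both strands and were found in none of the 5 windows and in 2.6% of all windows. The letters TTTATNG, a form of the site of CDX factors, were likewise in none of the 5 and in 9.7% of all windows. No match says only that these letters are not in these windows.

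Libraries held between 13029491 and 64082859 expected counts (median 47292229), and P4 and P6 of differentiation 3 were the shallowest. The deposited TPM values, which are scaled per length and per library and so allow genes to be compared, are given as levels. Normalized counts (expected counts over TMM size factors) and their log2 fold changes come from edgeR (quasi-likelihood F-test), in which the differentiation entered as a block. A change was called at a Benjamini-Hochberg adjusted p under 0.01, a fold change of 2 or more and 100 or more normalized counts on average. The 4 pluripotency markers (*POU5F1*, *NANOG*, *DPPA4*, *EPHA1*) summed to between 2453 and 2775 TPM at t0 and to between 1.68 and 5.15 TPM at P10, and the 6 neural crest markers to between 20.8 and 24.4 TPM at t0 and between 184 and 836 TPM at P10. Of these 6, *SOX10* did not share in the higher sum, and was under 1 TPM in every P9 and P10 library. P1 of differentiation 1 stood apart, with 1218 TPM summed over the pluripotency markers against 104 and 100 TPM in differentiations 2 and 3. At P1, 3 of the 6 neural crest markers (*SOX10*, *FOXD3* and *TFAP2B*) were under 1 TPM in every library, and the 4 paraxial mesoderm markers summed to 7.57, 363 and 359 TPM. In bulk RNA, fewer cells that express a gene and less RNA per cell cannot be told apart.

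*NKX1-2* (ENSG00000229544, chr10:124445239-124450184, minus strand) ranged from 0.46 to 652 TPM over the 35 whole cultures. It was already present in hESCs, at 15.9, 16.5 and 13.9 TPM in differentiations 1 to 3. At 36 h it was at 119, 168 and 39.1 TPM. At P1 the differentiations parted, with 652, 9.55 and 0.78 TPM. At P2 they were at 56.3, 3.02 and 0.46 TPM. Only differentiation 1, whose P1 library also kept the pluripotency markers, was above its own t0 level at P1 and P2, and the part of those markers in the *NKX1-2* level was not tested. From P3 to P7 the levels lay between 1.54 and 48.0 TPM, with P5 at 14.0, 37.6 and 12.2 TPM. At P8 they were 12.2, 3.14 and 0.81 TPM, at P9 2.24 and 2.13 TPM, and at P10 13.4, 0.84 and 1.09 TPM. Both P9 libraries and all P10 libraries were below every t0 library. The mean was highest at P1 (221 ± 373 TPM, SD, n = 3), where the SD exceeds the mean, and the median over differentiations was highest at 36 h (119 TPM).

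*GBX2* (ENSG00000168505, chr2:236165236-236168369, minus strand) stayed above its hESC level throughout the whole cultures, as did *EVX1*. At t0 it was at 1.43, 1.60 and 1.31 TPM, and at 36 h at 46.6, 58.4 and 52.6 TPM, the closest agreement among differentiations of any member at that time. P1 gave 122, 48.3 and 21.5 TPM. P2 gave 48.0, 6.87 and 4.39 TPM, below P1 in all 3 differentiations. The level was 52.6, 84.9 and 31.5 TPM at P5, and 53.5, 15.9 and 34.0 TPM at P8. At P9 it was 9.68 and 4.06 TPM, and at P10 25.3, 3.64 and 3.24 TPM, so that differentiation 1 was well above the other two at the end of the culture. Every library after t0 lay above the highest t0 library. *GBX2* has 3 transcripts in the files, and the effective length RSEM gave it ranged from 1455 to 1968 bases where it had at least 100 counts, a ratio of 1.35, so its TPM also moves with the mix of transcripts.

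*SP8* (ENSG00000164651, chr7:20782283-20786886, minus strand) was highest at 36 h. The hESCs held 2.80, 4.69 and 4.19 TPM, and the 36 h cultures 32.4, 46.1 and 43.3 TPM. The P1 levels were 22.9, 12.2 and 5.83 TPM, below all 36 h libraries. In differentiation 1 the level then stayed between 14.7 and 26.5 TPM from P2 to P8. In differentiations 2 and 3 it went from 3.70 and 3.94 TPM at P2 through 10.8 and 9.11 TPM at P4 to 1.63 and 0.42 TPM at P8. P9 gave 0.99 and 0.19 TPM, and P10 gave 3.32, 0.37 and 0.07 TPM. The last of these rests on 4 counts. Differentiation 1 was thus near its t0 level at P10 while the other differentiations were below theirs.

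*EVX1* (ENSG00000106038, chr7:27242700-27250493, plus strand) went from no more than 2 counts in any t0 library (0, 0.03 and 0.02 TPM) to 3.53, 87.7 and 108 TPM at 36 h. Differentiation 1 reached a similar level later, with 73.7 TPM at P1 and 76.5 TPM at P2, while differentiations 2 and 3 went down to 33.2 and 7.35 TPM at P1 and 8.39 and 2.56 TPM at P2. The same 36 h library of differentiation 1 had 8.81 TPM summed over the 4 paraxial mesoderm markers (*TBX6*, *MSGN1*, *MEOX1*, *TCF15*), against 132 and 631 TPM in the others, and the part of such cells in the *EVX1* level was not tested. By P4 all differentiations were at 1.05 to 2.49 TPM. P5 gave 4.07, 8.34 and 6.49 TPM, and P8 gave 0.38, 1.31 and 0.60 TPM, the lowest mean after t0 (0.763 ± 0.486 TPM, n = 3). The level was higher again at P9, with 8.77 and 5.51 TPM, and at P10, with 5.31, 2.10 and 10.6 TPM. None of the P9 and P10 libraries overlapped the P8 libraries.

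*FOXB1* (ENSG00000171956, chr15:60004222-60061730, plus strand) had its highest mean at P2, later than the highest means of the others, though *GBX2* was highest at P5 by the median over differentiations (52.6 TPM). It was at 2.45, 2.16 and 2.12 TPM at t0 and at 83.6, 24.3 and 12.4 TPM at 36 h. At P1 it was at 34.9, 69.4 and 185 TPM, the reverse of the order of the differentiations in *NKX1-2* at the same passage. P2 had 63.8, 144 and 143 TPM, the highest mean of the course (117 ± 46.1 TPM, n = 3). It then lay at 86.6, 25.2 and 34.3 TPM at P3 and at 38.6, 13.2 and 15.1 TPM at P5. At P8 the differentiations spread to 37.7, 4.57 and 0.60 TPM, and at P9 to 19.9 and 0.88 TPM. P10 had 6.28, 11.2 and 4.53 TPM, which is above all t0 libraries. The time courses by differentiation show these points together.

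**Figure D1:**
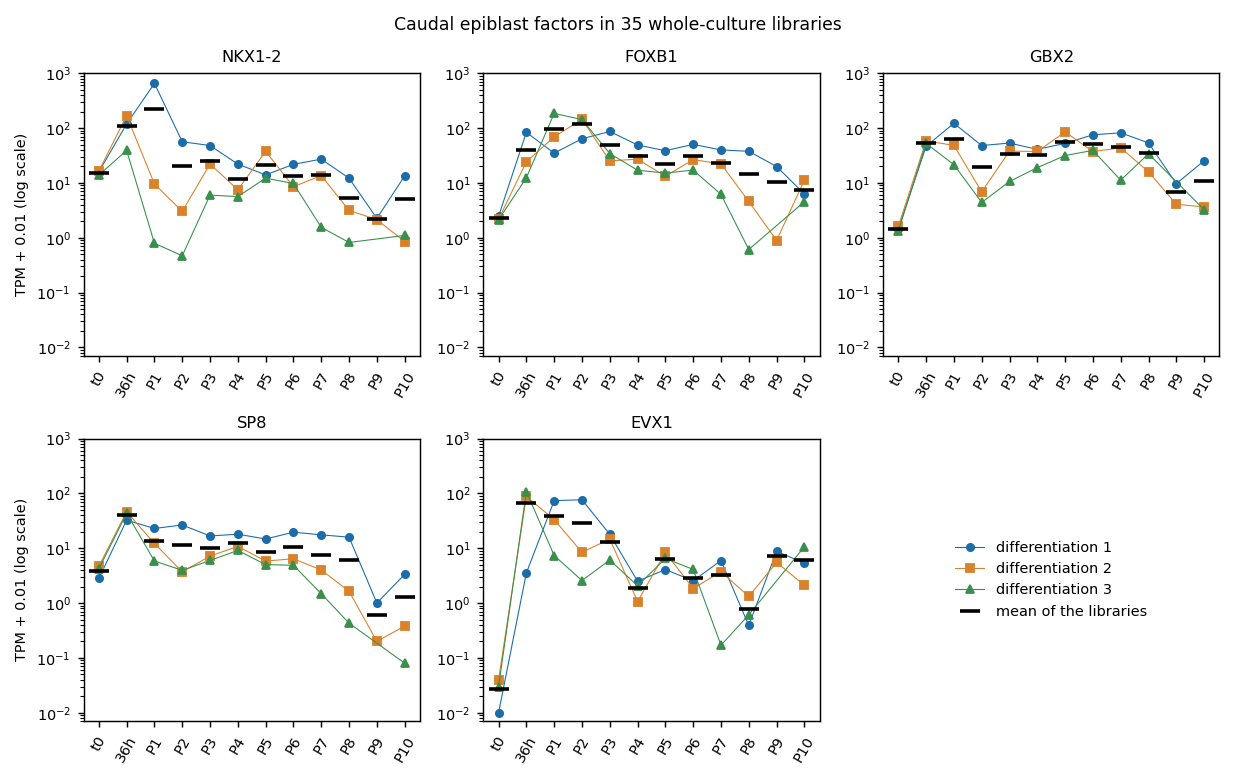
Level of each gene (TPM + 0.01, log scale) in 35 whole-culture libraries at 12 time points, with symbols and lines for differentiations 1 to 3 and black bars for the mean of the libraries. *NKX1-2* spreads from 0.78 to 652 TPM at P1, while *GBX2* lies between 46.6 and 58.4 TPM at 36 h.

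Neighbouring time points in the order of mean levels overlapped for nearly all members. For *NKX1-2* all neighbours did. The exceptions were t0, the group of lowest mean for *FOXB1*, *GBX2* and *EVX1*, which did not overlap the next group, and *SP8* at 36 h, which lay apart as the highest. For *GBX2* and *EVX1* t0 was also below every later library, whereas *FOXB1* was under its t0 libraries in P8 of differentiation 3 (0.60 TPM) and P9 of differentiation 2 (0.88 TPM).

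The comparison of 36 h with t0 asks which of the factors differed between hESCs and the NMP-like cells made with the inducing medium, whose components were not tested apart. Of the 5 genes, 3 were called, all higher, against 2.71% of the 21750 genes tested. *GBX2* rose by a log2 fold change of 5.28 (SE 0.74, adjusted p = 4.3e-05) and *SP8* by 3.28 (SE 0.78, adjusted p = 0.0063). *EVX1* was at least 1764-fold higher, counting t0 at a floor of 3 counts per library (adjusted p = 1.5e-04), with lower bounds of 71.4-, 2216- and 3388-fold in differentiations 1 to 3. *FOXB1* (log2 fold change 3.73, SE 0.98, adjusted p = 0.013) and *NKX1-2* (2.42, SE 1.18, adjusted p = 0.19) did not pass the test in edgeR, although both were higher in 3 of 3 differentiations. *FOXB1* was called at 36 h by DESeq2 (3.71, adjusted p = 0.00039), by limma (adjusted p = 0.0069) and by edgeR on all 47 libraries (0.0082). The *SP8* call was lost without the replicate block (adjusted p = 0.074), without differentiation 2 (0.22) or 3 (0.075) and without the 2 shallowest libraries (0.010), and those of *GBX2* (0.023) and *EVX1* (0.051) were lost without differentiation 2.

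Each passage was then set against t0. *GBX2* was called higher in 10 of 11 time points, *EVX1* in 8 and *FOXB1* in 5. *SP8* was called in 3, higher at 36 h and lower at P9 and P10. *NKX1-2* was called in 0 by edgeR, and DESeq2 called it in 1, lower at P9. With the compared groups alone, edgeR also called *NKX1-2* lower at P9 (-2.98, adjusted p = 0.0027). Its unadjusted p was under 0.05 in 3, P8, P9 and P10, as was that of 12110, 12583 and 12889 of the 21750 genes tested. In all, 26 of 55 results were called. Without differentiation 2, 6 were left, all of them *GBX2* (P1 and P4 to P8), so that every *FOXB1*, *EVX1* and *SP8* call against t0 was lost. The *FOXB1* calls at P4 and P6 then had an adjusted p of 0.068 each. Without differentiation 3, *FOXB1* kept its call at P2 and lost those at P1 (0.014), P3 (0.012), P4 and P6 (0.017 each), and with the compared groups alone it lost that at P1 (0.022). The compared groups alone also cost *GBX2* its calls at P1 (0.025) and P2 (0.055) and *EVX1* its call at P1 (0.014). Without differentiation 1, the *GBX2* log2 fold change at P2 went from 3.09 to 1.76 and was not called (adjusted p = 0.036). At P1 (8.79% of genes called), P2 (12.8%) and P3 (13.6%), *FOXB1*, *GBX2* and *EVX1* rose, with *FOXB1* at a log2 fold change of 5.78 (SE 1.07, adjusted p = 2.3e-04) at P1 and 5.89 (SE 1.07, adjusted p = 1.2e-04) at P2. At P4 (14%) and P6 (14.6%), *GBX2* and *FOXB1* rose, and *EVX1* had an adjusted p of 0.0043 and 0.0019 but a mean under 100 normalized counts (64.7 and 93.6). At P5 (14.3%) and P7 (15.2%), *GBX2* and *EVX1* rose. These *EVX1* calls were lost with limma (adjusted p = 0.025 and 0.16), and that at P7 also without differentiation 1 (0.013). *FOXB1* missed the threshold at both in edgeR (adjusted p = 0.012 each), and was called at both by DESeq2 (0.0022 each), in fits of the compared groups alone (0.00088 and 0.0096) and on all 47 libraries (0.0088 and 0.0098). At P8 (15.4%), *GBX2* alone was called, at a log2 fold change of 4.35 (SE 0.71, adjusted p = 2.6e-05), and without differentiation 1 *SP8* was called lower (-2.42, adjusted p = 0.0016).

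At the end of the culture, 2 genes were called at P9 (19.7%) and 3 at P10 (18.3%). *SP8* fell by 4.10 on the log2 scale at P9 (SE 1.01, adjusted p = 0.0016) and by 3.01 at P10 (SE 0.81, adjusted p = 0.0030). The P9 call rests on 2 libraries and was lost without the replicate block (adjusted p = 0.083), without differentiation 2 (0.13) and in a fit of the compared groups alone (0.044). The P10 fall came from differentiations 2 and 3, whose log2 ratios to t0 were -3.69 and -6.34, against 0.12 in differentiation 1, and without differentiation 2 its adjusted p was 0.13 and without differentiation 3 0.089. That call was also lost without the replicate block (adjusted p = 0.18), with limma (0.030) and with the compared groups alone (0.17). *EVX1* rose at both, at least 173-fold at P9 and at least 147-fold at P10, the latter at least 87.0-fold without differentiation 3. Both *EVX1* calls were lost with limma (adjusted p = 0.039 and 0.034) and without differentiation 2 (0.033 and 0.019). *GBX2* rose at P10 by a log2 fold change of 2.20 (SE 0.67, adjusted p = 0.0082), a call that was lost in 7 of 14 alternatives, among them no replicate block (adjusted p = 0.013), limma (0.013), the compared groups alone (0.10) and the fit without the P10 library of differentiation 1 (1.47, adjusted p = 0.079). *NKX1-2* was lower in every differentiation at P8, P9 and P10, with log2 fold changes of -2.80, -3.89 and -2.99 and adjusted p-values of 0.060, 0.036 and 0.044. Without differentiation 1, it was called lower at P2 (-3.68, adjusted p = 0.0041), P8 (-3.46, adjusted p = 0.0047) and P10 (-3.96, adjusted p = 0.0021). Over the 4 epithelial pre-neural markers (*SOX2*, *CDX2*, *CDH1*, *EPCAM*) the summed level was 14.3 and 14.6 TPM at P9 and 414, 6.51 and 4.15 TPM at P10, so that the P10 library of differentiation 1 differed from the others in these markers as in *SP8*, *GBX2* and *NKX1-2*. *CDH1* was under 1 TPM in every P9 library. The part of epithelial cells in the levels of *SP8*, *GBX2* and *NKX1-2* was not tested.

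**Figure D2:**
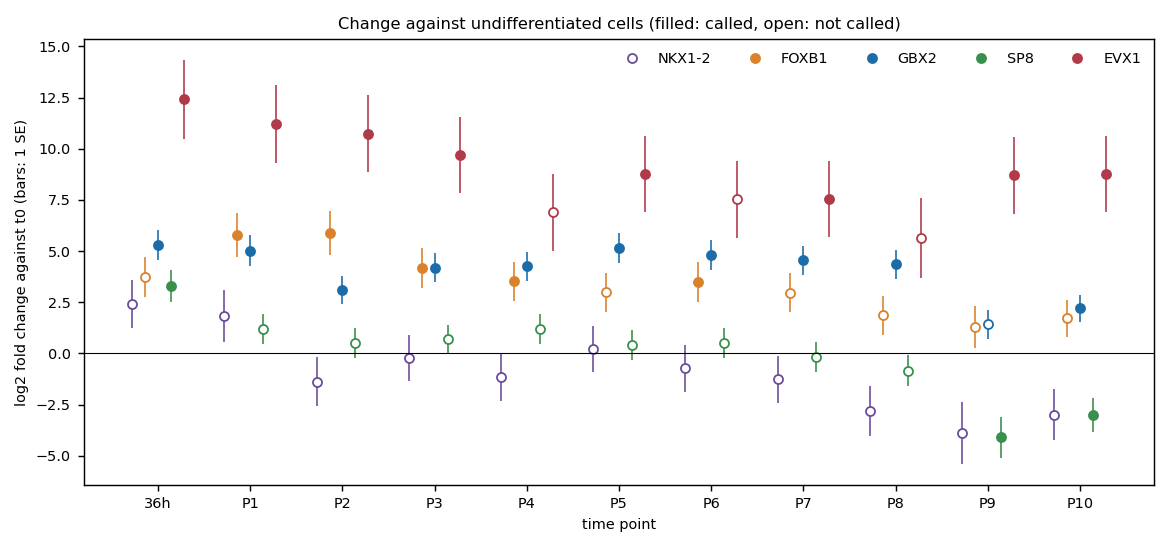
Log2 fold change against t0 (vertical axis, bars of 1 SE) at 36 h and each passage for the 5 genes, with filled symbols for called changes and open ones for the rest. *GBX2* is filled at 10 of 11 time points, and *SP8* is filled above 0 at 36 h and below 0 at P9 and P10.

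Between P5 and 36 h, the comparison that spans the loss of the NMP-like state, 8.33% of genes were called and, of the 5, *SP8* alone by edgeR. *SP8* fell by 2.86 on the log2 scale (SE 0.76, adjusted p = 0.0057), a call that was lost without the replicate block (adjusted p = 0.12), without differentiation 2 (0.16) or 3 (0.056) and with the compared groups alone (0.020). *NKX1-2* was lower in 3 of 3 differentiations with no overlap (log2 fold change -2.21, adjusted p = 0.15), and was called in the fit of the compared groups alone (-2.42, adjusted p = 0.0054). *EVX1* was lower in 2 of 3 differentiations (log2 fold change -3.66, adjusted p = 0.019), since differentiation 1 had little *EVX1* at 36 h, and DESeq2 called it (-3.65, adjusted p = 0.0036). *GBX2* was within its spread (log2 fold change -0.13, SE 0.61, adjusted p = 0.90).

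No member was called in any of the 10 steps from a time point to the next after 36 h, over 50 results (edgeR). Without differentiation 1, 2 were called at P1 against 36 h, *NKX1-2* lower (log2 fold change -4.57, adjusted p = 0.0036, against -0.59 and 0.83 with all differentiations) and *SP8* lower (-2.41, adjusted p = 0.0048, against -2.08 and 0.081). Of the 50, 8 had an unadjusted p under 0.05, and DESeq2 called 2, *GBX2* and *SP8* at P9 against P8, where it called 819 genes in all. Few genes of any kind were called between passages by edgeR, with 1.19% at P1 against 36 h, 0.0276% at P2 against P1, 0.0092% at P3 against P2, 1.22% at P9 against P8 and none in the other steps. The 1.22% were 265 genes, and 15 were called without the replicate block. DESeq2 called 574 genes at P1 against 36 h, 164 at P2 against P1, 50 at P3 against P2 and 42 at P10 against P9. In the steps from P3 to P8 it called no more than 11. *GBX2* (log2 fold change -2.93, SE 0.79, adjusted p = 0.021) and *SP8* (-3.25, SE 0.96, adjusted p = 0.033) came nearest to the threshold, both at P9 against P8 and both lower in 2 of 2 differentiations. *EVX1* had 3.07 in that step (SE 1.26, adjusted p = 0.12), higher in 2 of 2. The longer steps gave no call either by edgeR with all differentiations. For P8 against P5 (0.0092% of genes called) and P10 against P8 (0.0874%), 5 of 10 member results had an unadjusted p under 0.05 and DESeq2 called 1, *GBX2* at P10 against P8, where it called 307 genes in all. Without differentiation 1, edgeR also called *GBX2* lower at P10 against P8 (-2.96, adjusted p = 0.006). *EVX1* was lower in 3 of 3 differentiations at P8 against P5 (-3.13, SE 1.19, adjusted p = 0.24) and higher in 3 of 3 at P10 against P8 (3.12, SE 1.21, adjusted p = 0.18).

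The fractions of P5 and P8 were compared within each culture. At P5 all 5 genes were lower in the mesenchymal fraction in 3 of 3 differentiations, which is 15 of 15 pairs. These pairs come from 3 cultures and are not independent, and the share of all genes lower in 3 of 3 was not counted. *FOXB1* was at 45.6, 19.2 and 15.6 TPM in the epithelial fractions and at 17.5, 3.72 and 2.14 TPM in the mesenchymal ones. *GBX2* was at 58.7, 96.3 and 65.7 TPM and at 21.1, 46.7 and 12.1 TPM, with no overlap. *NKX1-2* was at 17.8, 41.2 and 26.3 TPM and at 5.57, 18.3 and 4.83 TPM. *SP8* was at 18.2, 8.24 and 7.16 TPM and at 6.06, 3.26 and 0.97 TPM, also with no overlap. *EVX1* was at 4.38, 8.28 and 12.5 TPM and at 2.97, 6.26 and 2.49 TPM. Every member was thus still detected in every mesenchymal library.

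None of the 5 was called between the fractions, and neither was any gene (0% of 18885), at P5 or at P8 by edgeR. At P5, 4894 genes had an unadjusted p under 0.05 and DESeq2 called 674, and at P8 2261 had one and DESeq2 called 55. Of the 10 member results, 4 had an unadjusted p under 0.05, and DESeq2 called 1, *FOXB1* at P5. *FOXB1* had the largest difference at P5, with a log2 fold change of -2.33 (SE 0.51, adjusted p = 0.033). *SP8* had -2.11 (SE 0.78, adjusted p = 0.13), *NKX1-2* -1.74 (SE 0.70, adjusted p = 0.16), *GBX2* -1.53 (SE 0.58, adjusted p = 0.14) and *EVX1* -0.90 (SE 0.52, adjusted p = 0.32). The 4 epithelial pre-neural markers summed to between 438 and 703 TPM in the P5 epithelial and between 82.5 and 249 TPM in the P5 mesenchymal fractions, and the 6 neural crest markers to between 65.6 and 222 TPM and between 383 and 508 TPM. Of the epithelial pre-neural markers, *CDH1* did not share in the sums, and was under 1 TPM in every P5 fraction library. The part of the cell mix in the members' differences was not tested.

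At P8, 11 of 15 pairs, again from 3 cultures, were lower in the mesenchymal fraction. *NKX1-2*, *FOXB1* and *GBX2* were lower in 3 of 3 differentiations, with *GBX2* at 51.1, 17.1 and 26.2 TPM in the epithelial and 34.4, 13.5 and 8.21 TPM in the mesenchymal fractions. *SP8* was lower in differentiations 1 and 3 only. *EVX1* was at 1.07, 2.04 and 2.96 TPM in the mesenchymal against 0.24, 1.61 and 2.68 TPM in the epithelial fractions, with log2 ratios of normalized counts of 2.08, 0.28 and 0.01, the last of which is close to no difference. Adjusted p-values at P8 ran from 0.50 for *FOXB1* (log2 fold change -0.91) to 0.94 for *SP8* (-0.22). The difference between the fractions was less negative at P8 than at P5 for all 5 genes, but the interaction of passage and fraction called none of them (log2 difference from 0.66, SE 0.81, for *GBX2* to 1.90, SE 1.08, for *SP8*, lowest adjusted p = 0.83). It called 0% of all genes, with 1152 at an unadjusted p under 0.05 and 1 called by DESeq2. The markers of the fractions also lay closer at P8, where the epithelial list summed to between 183 and 634 TPM in the epithelial and between 50.9 and 439 TPM in the mesenchymal fractions. In that list *CDH1* was under 1 TPM in every P8 epithelial library.

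**Figure D3:**
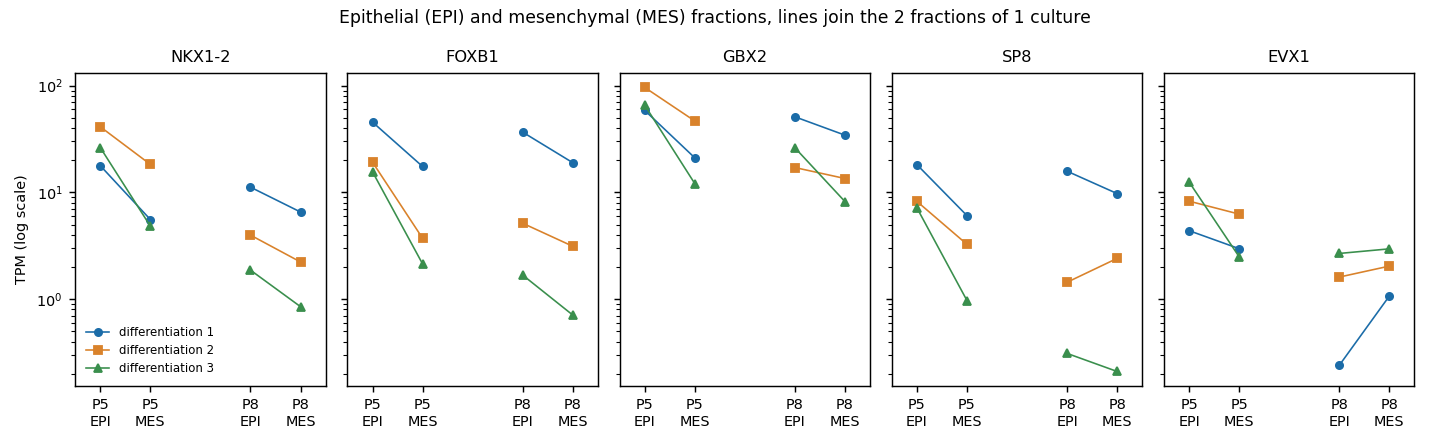
Level of each gene (TPM, log scale) in both fractions of P5 and P8 cultures, with a line joining the fractions of 1 culture and a color and symbol for each differentiation. All 15 lines slope down at P5, and the 3 *EVX1* lines slope up at P8, that of differentiation 3 only from 2.68 to 2.96 TPM.

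From P5 to P8 within a fraction, no member was called, against 0.259% of genes in the epithelial and 0.699% in the mesenchymal fractions. In the epithelial fraction, *EVX1* had a log2 fold change of -2.62 (SE 0.55, adjusted p = 0.031), *NKX1-2* -2.67 (SE 0.75, adjusted p = 0.058) and *FOXB1* -1.85 (SE 0.51, adjusted p = 0.055), each lower in 3 of 3 differentiations. DESeq2 called these 3. Over all genes it called 606 in the epithelial and 751 in the mesenchymal fractions, where edgeR called 49 and 132. Without the replicate block, edgeR called 0 and 1. Of the 10 member results over both fractions, 5 had an unadjusted p under 0.05, as had 5918 and 5882 of the 18885 genes tested.

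The fractions were also compared with the 36 h cultures. In the P5 epithelial fraction no member was called (8.91% of genes called; 9880 genes had an unadjusted p under 0.05), with *SP8* at an adjusted p of 0.016 and *EVX1* at 0.025, and DESeq2 called these 2. *SP8* was called there by limma (0.0062) and by edgeR without differentiation 1 (0.0043) as well. In the P5 mesenchymal fraction (10.7%), *SP8* fell by 4.39 on the log2 scale (SE 0.87, adjusted p = 1.6e-04) and *EVX1* by 4.23 (SE 1.17, adjusted p = 0.0043). The *EVX1* log2 ratios there were -0.15, -4.01 and -5.53 in differentiations 1 to 3, and limma did not call *EVX1* (adjusted p = 0.011). In the P8 epithelial fraction (10.9%), *NKX1-2* fell by 4.69 (SE 1.24, adjusted p = 0.0029), *SP8* by 4.34 (SE 0.88, adjusted p = 1.9e-04) and *EVX1* by 5.53 (SE 1.24, adjusted p = 5.8e-04). In the P8 mesenchymal fraction (12%), the same 3 fell, *NKX1-2* by 5.62 (SE 1.31, adjusted p = 8.2e-04), *SP8* by 4.59 (SE 0.89, adjusted p = 1.0e-04) and *EVX1* by 5.21 (SE 1.23, adjusted p = 8.9e-04). *GBX2* and *FOXB1* were called in none of the 4 by edgeR, with *GBX2* closest at an adjusted p of 0.012 in the P8 mesenchymal fraction. *NKX1-2* was lower in the P5 mesenchymal fraction in 3 of 3 differentiations, with no overlap (-3.39, adjusted p = 0.020), and was called there by DESeq2 (adjusted p = 0.0038), by limma (0.0080) and by edgeR without differentiation 1 (0.0025). DESeq2 also called *FOXB1* lower in both mesenchymal fractions and *GBX2* in that of P8, and limma called *FOXB1* in that of P8 (adjusted p = 0.0090). Without differentiation 1, edgeR called *FOXB1* lower in the P5 mesenchymal (-2.73, adjusted p = 0.0058), P8 epithelial (-2.57, adjusted p = 0.0068) and P8 mesenchymal fractions (-3.51, adjusted p = 0.0011), and *GBX2* in the P8 mesenchymal fraction (-2.62, adjusted p = 0.0027). Differences between the genes were not tested. All of these comparisons share the 36 h libraries. Each of the 8 calls was lost without differentiation 2, with adjusted p-values from 0.026 to 0.096, and the 5 of *NKX1-2* and *SP8* were lost without the replicate block. Without differentiation 3, *NKX1-2* lost its calls in the P8 epithelial (adjusted p = 0.024) and P8 mesenchymal fractions (0.013). *SP8* then lost that in the P8 epithelial fraction (-3.17, adjusted p = 0.01) and *EVX1* that in the P5 mesenchymal fraction (-3.39, adjusted p = 0.048).

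Per length, *GBX2* was the most abundant of the 5 genes in 16 of 35 whole cultures, *FOXB1* in 9, *NKX1-2* in 6, *EVX1* in 4 and *SP8* in 0. In the fractions *GBX2* ranked at the top in 12 of 12 libraries. *NKX1-2* held between 64.6% and 70.5% of the summed TPM of the 5 genes at t0. The lowest place went to *EVX1* in 16 and to *SP8* in 13 of the 35 whole cultures.

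The members did not vary as a unit. Over deviations of log2 CPM from the mean of each time point, which removes the shared time course, *NKX1-2* and *GBX2* had a Pearson r of 0.84 and *GBX2* and *SP8* one of 0.78 (35 libraries). In these deviations *FOXB1* was apart, with 0.09 to *NKX1-2*, 0.14 to *GBX2* and -0.17 to *EVX1*, though 0.52 to *SP8*. With the time course left in, on log2 CPM itself, *FOXB1* had 0.22 to *NKX1-2*, 0.47 to *GBX2*, 0.60 to *SP8* and 0.51 to *EVX1* over the 35 libraries. Over the 12 fraction libraries r was likewise taken on log2 CPM itself, with the differences between passages and fractions left in. There *FOXB1* had 0.96 to *SP8* and 0.74 to both *NKX1-2* and *GBX2*. *NKX1-2* and *GBX2* had 0.90, and *EVX1* had -0.09 to *SP8* and -0.13 to *FOXB1*. These values describe libraries that share differentiations and depth and are given without a test.

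For each member, the gene with the most similar profile over the 35 whole cultures was sought among 13379 genes that averaged 100 or more normalized counts. For 3 of the 5 this gene lay near the member on the chromosome, which for *NKX1-2* did not hold without differentiation 1. How often this holds for other genes was not counted. For *NKX1-2* it was *OAT*, which encodes the mitochondrial enzyme ornithine aminotransferase and lies on chr10:124397303-124418976, on the same strand and 26263 bases away (Pearson r 0.88, Spearman rho 0.87). Over the 12 fractions, which the choice did not use but which come from the same differentiations, r was 0.96. *OAT* was at 125 to 139 TPM at t0, at 220, 261 and 203 TPM at 36 h and at 324, 117 and 84.3 TPM at P1, so that it repeated the split of the differentiations at P1 over a much narrower range. Without differentiation 1, *OAT* ranked at 9 (r 0.83) and *HAS3* came first (r 0.89). Over all differentiations *USP39*, a splicing factor, and *HAS3*, a hyaluronan synthase, followed with r of 0.87 and 0.86 and lie on other chromosomes. Of the 8 genes compared within 500000 bases of *NKX1-2*, the median r was 0.10.

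For *FOXB1* the nearest profile was that of AC009654.1, a long intergenic noncoding RNA on the opposite strand (chr15:60073554-60118320), 11824 bases away (r 0.85, rho 0.93, and 0.95 over the fractions). AC009654.1 was at 9.74, 32.6 and 33.5 TPM at P2, where *FOXB1* was highest. It was listed at 0 in both P9 libraries, in 1 of which *FOXB1* was still at 19.9 TPM. *MRPL30*, a mitochondrial ribosomal protein, and *CENPBD1* came after it with r of 0.85 and 0.84, and the median over the 7 genes within 500000 bases was 0.13.

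For *EVX1* the nearest were AC004080.1, a noncoding RNA 1472 bases from it (r 0.94, and 0.91 over the fractions), and *EVX1-AS* (r 0.93, and 0.90 over the fractions), both on the opposite strand. *EVX1-AS* overlaps *EVX1* by 4530 bases, and the strand setting of the counting is not given in the sources used here, so reads of *EVX1* and *EVX1-AS* may not be told apart. *EVX1-AS* was at 3.22, 36.1 and 91.7 TPM at 36 h. At P9 and P10 it was at 0.52 to 8.58 TPM, and it was under *EVX1* in both P9 libraries and in 2 of 3 P10 libraries. *TCHP*, which came after *EVX1-AS*, had 0.87 over the whole cultures and 0.18 over the fractions.

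*GBX2* was most like *CDX2*, a caudal homeodomain factor, with r of 0.88 over the whole cultures and 0.87 over the fractions (rank 6 by Spearman rho and 2 without differentiation 1), and then like *POLA2*, a DNA polymerase subunit (0.85 and 0.75), and *CYREN* (0.85 and 0.66). *SP8* was most like *FAM86B1*, *MTX2* and *MSI1*, an RNA-binding protein of neural progenitors, each at 0.89 over the whole cultures and at 0.71, 0.88 and 0.67 over the fractions. This order was not stable, since by Spearman rho they ranked at 22, 80 and 1, and without differentiation 1 at 4, 11 and 23. *GBX2* had 3 compared genes and *SP8* had 1 within 500000 bases, and none of them had an r above 0.63.

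**Figure D4:**
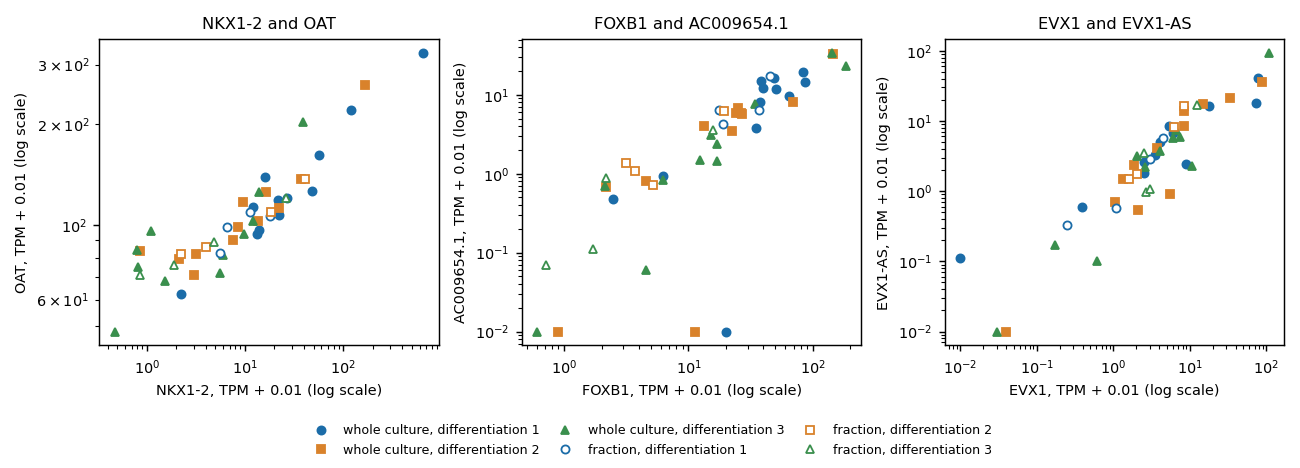
Level of *NKX1-2* against *OAT*, *FOXB1* against AC009654.1 and *EVX1* against *EVX1-AS* (TPM + 0.01, log scales on both axes) in 47 libraries, with filled symbols for whole cultures and open ones for fractions. *OAT* spans 48.2 to 324 TPM while *NKX1-2* spans 0.46 to 652 TPM, and AC009654.1 is listed at 0 where *FOXB1* is at 19.9 TPM.

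The nearest paralogues had other courses. *NKX1-1* was listed at 0 in all 47 libraries and *GBX1* at no more than 0.54 TPM. *FOXB2* was at 1.50, 1.01 and 2.76 TPM at t0, at 7.73 TPM in the 36 h library of differentiation 1 and at no more than 0.90 TPM elsewhere. *SP5*, a direct WNT target, was at 0.56 to 1.24 TPM at t0 and at 177 to 230 TPM at 36 h (log2 fold change 8.17, SE 0.86, adjusted p = 8.8e-07), and unlike *SP8* it was still called higher at P10, at 66.7, 122 and 48.1 TPM (6.67, SE 0.82, adjusted p = 4.1e-07). *SP9* was at 0.07, 5.77 and 27.1 TPM at P10. The promoter window of *SP5* held the TCF/LEF letters that none of the 5 members held, and neither did those of *NKX1-1*, *FOXB2*, *GBX1* and *EVX2*. The CDX letters were in the windows of *SP5*, *EVX2* and *NKX1-1*, the last of which had no counts.

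*EVX2*, the paralogue of *EVX1* beside the *HOXD* cluster, had no more than 0.27 TPM in any library up to P6. It was at 0.17, 4.57 and 2.97 TPM at P8, at 52.9 and 10.6 TPM at P9 and at 5.05, 26.5 and 8.30 TPM at P10. *EVX2* rose from P8 to P9 (log2 fold change 5.45, SE 1.07, adjusted p = 0.0046), a step in which *EVX1* did not pass. At P9 and P10, *EVX2* was above *EVX1* in 3 of 5 libraries. Of the genes that flank *EVX1*, *HOXA13* ends 42594 bases before its start and was at 5.04, 46.7 and 59.5 TPM at P8 and at 195 and 74.2 TPM at P9, and *HIBADH*, a metabolic enzyme, was between 13.9 and 50.5 TPM in all whole cultures.

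**Figure D5:**
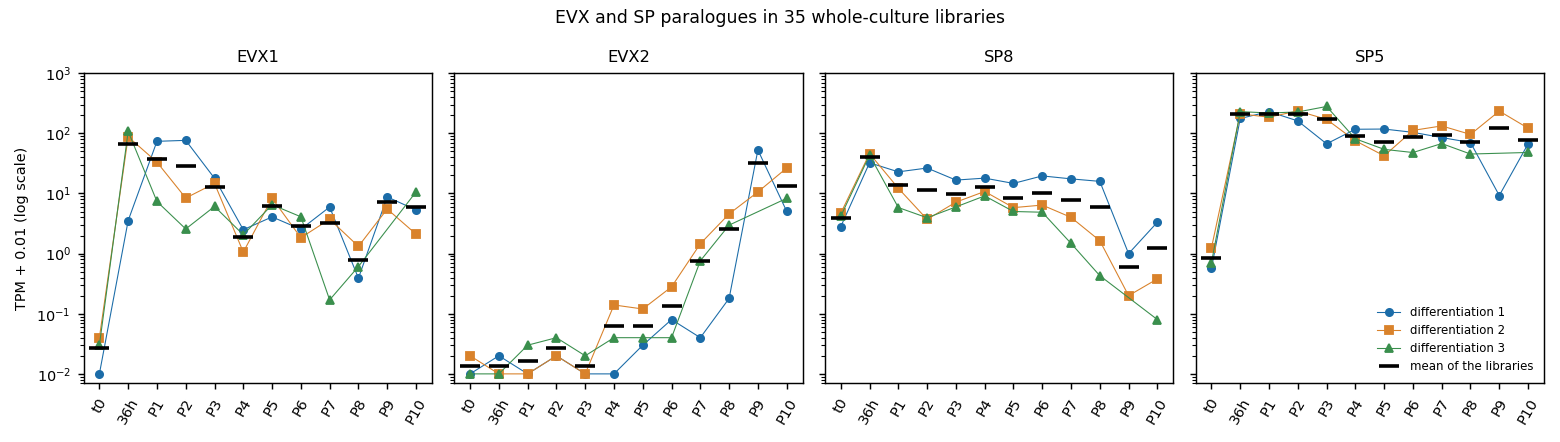
Level of *EVX1*, *EVX2*, *SP8* and *SP5* (TPM + 0.01, log scale) at 12 time points in the 35 whole-culture libraries, with symbols for differentiations and black bars for means. *EVX2* first passes 1 TPM at P7 and reaches 52.9 TPM at P9, and *SP5* stays at 9.25 TPM or above after t0.

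Other axial progenitor genes are given beside these values. They were chosen with earlier results of these data known, so their counts are a description and not a test. From a list of 16, 9 were called higher and 0 lower at 36 h against t0, where 2.71% of all genes were called, with a median log2 fold change of 6.51 against 0.00 over all genes. *TBXT*, the T-box factor of the primitive streak, was at 344 ± 244 TPM at 36 h (n = 3) and at 4.34 ± 1.63 TPM at P5. *CDX1* was at 137 ± 86.5 TPM and at 1.09 ± 0.542 TPM. *CDX2* was at 108 ± 80.2 TPM and at 261 ± 95.2 TPM, and *CDX4* did not exceed a mean of 0.643 TPM at these times. At P5 against 36 h, 0 of the 16 were called higher and 7 lower, *TBXT* and *CDX1* among them, where 8.33% of all genes were called, with a median of -2.61 against -0.01 over all genes. At P10 against t0, 2 were higher (*CDX2* and *SP5*) and 3 lower (*CYP26A1*, *LIN28A* and *FST*), where 18.3% of all genes were called, with a median of -1.91 against 0.01 over all genes. Between the fractions, the median log2 fold change of the 15 tested was -1.10 at P5 and -0.16 at P8, against 0.00 and -0.01 over all genes. Among the genes that define other lineages, the 4 endoderm markers summed to between 8.19 and 13.8 TPM at 36 h and to no more than 0.40 TPM at t0, and from P2 on to no more than 0.39 TPM. Of these 4, *SOX17* and *FOXA1* did not share in the higher sum, and were under 1 TPM in every 36 h library.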

How the data were processed

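The 47 libraries were polyA-selected and sequenced as 75 bp single-end reads. Per the submitters' processing notes, cutadapt 1.16, STAR 2.5.2b and RSEM 1.3.0 were used with GRCh38. The annotation release and strand setting are not given in the sources used here. For each gene the authors deposited RSEM expected counts, which need not be whole since reads that fit several genes are divided, and TPM, which is scaled by effective length and per library. The deposited effective lengths, in bases, were used to check TPM. Symbols and coordinates are from GENCODE 29, which matched 57447 of 58051 identifiers. Symbols were not found for 604.

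Expected counts were rounded and tested with edgeR 4.0.16 in R 4.3.3 (TMM, filterByExpr, glmQLFit and glmQLFTest, Benjamini-Hochberg adjustment), with group and differentiation as terms. Of these fits, 1 held the 35 whole cultures, 1 the 12 fraction libraries and 1 all 47 libraries, the last for fractions against 36 h. The call thresholds have the study's values, but its minimum was a DESeq2 base mean over libraries and the one used here is the mean of both compared groups. SE is the log2 fold change over the square root of F. The design text states that each experiment ran through all time points and fractions, so replicate numbers pair the samples. Deviations from group means had a mean correlation of 0.14 between libraries of the same number and -0.07 between others in the whole cultures, and of 0.42 and -0.21 in the fractions. No replicates agreed within sampling noise (lowest mean chi-square per gene 25.4 over 46 pairs). The fits were also tested on simulated data, and the outcome is not given here.

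Similar profiles are Pearson correlations of log2 CPM (prior count 2). Named genes were the 5 members, their paralogues and neighbours, the first 4 of each list, and the 3 most similar genes per member. The genes within 500000 bases were added after the similar genes were seen. The members and lists were chosen with earlier results of these data known. Alternatives were DESeq2 1.42.0, its size factors within edgeR, limma 3.58.1 on log2(TPM + 1), no block, no filter, other thresholds, other sets of libraries and each replicate left out. Differentiation 3 of P9 was not analysed here. Limits from counts cover counting error only.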

Additional observations from a re-analysis of the deposited data

How the results depend on the processing

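Of 165 member results set against 2075 alternatives, 1942 kept their side of the threshold, 71 lost a call, 62 gained one and 0 turned from one called direction to the other. Of the 35 called results, 5 were called in every alternative run, all of them *GBX2* against t0 at P4 to P8, and 30 were lost in at least 1. Without the replicate block, called member results went from 26 to 22 of 55 against t0, from 8 to 3 of 20 for fractions against 36 h and from 1 to 0 of 15 for P5 against 36 h and the later long steps. With a differentiation left out, calls ran from 6 to 27 against t0, from 0 to 5 of 55 for each time point against the one before it (3 with all), from 0 to 2 of 15 for the long steps, from 0 to 14 of 20 for fractions against 36 h and from 0 to 1 of 15 for P8 against P5 in the fractions with the interaction (0 with all). The lowest counts came without differentiation 2, which cost 29 calls, and the cause was not tested. DESeq2 gave 6 calls for single steps, 3 for the long steps, 14 for fractions against 36 h, 1 between the fractions and 3 for P8 against P5 in the fractions, and an adjusted p under 0.05 in edgeR gave 6, 2, 14, 1 and 1. Across all genes, DESeq2 called 881 at 36 h against t0 where edgeR called 589, and 307 against 19 at P10 against P8. By the median over differentiations, *NKX1-2* was highest at 36 h (119 TPM) and *GBX2* at P5 (52.6 TPM), not at P1 as by the mean (221 and 64.0 TPM). Leaving out the 2 shallowest libraries, chosen after seeing the data, cost 2 calls. The fits of only the compared groups were not run for fractions against 36 h.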
